A study of Homo sapiens with 2 samples.

Results

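Long non-coding RNAs (lncRNAs) are transcripts that encode no annotated protein, and many are transcribed from promoters of their own, others from the promoter of a neighbouring coding gene in the opposite direction. The 924 regions described here were ChIPmentation peaks of control cells whose summit lay within 1 kb of either end of a RefSeq lncRNA gene and more than 1 kb from both ends of every protein-coding gene. They made up 6.08% of the 15186 peaks of the control list on chromosomes 1 to 22 and X. The other peaks were 8220 at protein-coding ends and 6042 remaining peaks, which lay at neither. The position alone chose the regions, and MALAT1 and NEAT1 were left out.

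ChIPmentation is a chromatin immunoprecipitation in which Tn5 transposase inserts the sequencing adapters on the bead-bound chromatin. The cells were PANC-1, a line long established from a human pancreatic ductal carcinoma, with 1 sample treated with inflachromene, a small molecule that binds HMGB1 and HMGB2, and 1 sample treated with the solvent DMSO. Cells of both groups were crosslinked with 15 mM EGS for 30 min and 1% formaldehyde for 10 min. Neither what the antibody recognised nor how much inflachromene was given, nor for how long, is stated in the labels, so a peak says only that fragments piled up there. With 1 library of 1 cell line per treatment there was no replicate check: no test was made, and every difference below compares these 2 libraries, not the treatments.

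Among lncRNAs with known roles, some act in cis on a neighbouring gene, some bind proteins or microRNAs, and some are known chiefly as hosts whose processing releases microRNAs or small nucleolar RNAs. The host of the miR-17-92 cluster is a known oncogene, and the host of miR-210 is known to answer low oxygen. Promoters of lncRNA genes can carry CpG islands, GC boxes and CCAAT boxes, as those of coding genes do.

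The annotated start regions of 7 lncRNA genes are shown because their DMSO summits lay inside them and they span the outcomes described below. DANCR, LINC02226 and LINC01569 were among the strongest peaks found in both lists, and SNHG5 was a host gene with a slightly higher inflachromene pileup. MIR17HG, ZNF433-AS1 and LINC02447 had a peak in DMSO alone. Each run covers 250 bases before to 50 bases after the start, 5′ to 3′ along the gene, from the RefSeq promoter table of GRCh38.p14. Capitals mark matches, on either strand, to the motifs described further below. In these regions they are CCAAT boxes (CCAAT), GC boxes (GGGCGG), 1 ETS core (CCGGAA, in ZNF433-AS1) and 1 TEAD core (GGAATG, in LINC02226).
DANCR (chr4:52712144-52712443, plus strand): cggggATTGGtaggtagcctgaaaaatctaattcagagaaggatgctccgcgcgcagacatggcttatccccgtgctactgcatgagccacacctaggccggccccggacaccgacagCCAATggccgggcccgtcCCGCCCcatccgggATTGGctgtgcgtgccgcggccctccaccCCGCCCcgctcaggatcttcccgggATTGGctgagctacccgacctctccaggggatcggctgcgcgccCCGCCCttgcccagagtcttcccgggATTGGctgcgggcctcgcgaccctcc
LINC02226 (chr5:8457515-8457814, minus strand): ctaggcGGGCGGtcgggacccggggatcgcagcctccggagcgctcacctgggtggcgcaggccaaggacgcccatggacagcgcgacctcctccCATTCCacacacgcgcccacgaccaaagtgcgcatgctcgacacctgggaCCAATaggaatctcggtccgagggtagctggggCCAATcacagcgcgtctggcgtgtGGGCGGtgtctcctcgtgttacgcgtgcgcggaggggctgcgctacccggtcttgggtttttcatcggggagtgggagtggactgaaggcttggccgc
LINC01569 (chr16:4253740-4254039, minus strand): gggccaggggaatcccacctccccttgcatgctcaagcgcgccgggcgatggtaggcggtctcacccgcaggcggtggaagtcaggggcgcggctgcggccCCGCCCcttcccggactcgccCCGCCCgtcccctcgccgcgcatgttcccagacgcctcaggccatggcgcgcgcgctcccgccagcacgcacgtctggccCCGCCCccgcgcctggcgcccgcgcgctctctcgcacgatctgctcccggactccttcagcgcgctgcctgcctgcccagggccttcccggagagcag
SNHG5 (chr6:85678684-85678983, minus strand): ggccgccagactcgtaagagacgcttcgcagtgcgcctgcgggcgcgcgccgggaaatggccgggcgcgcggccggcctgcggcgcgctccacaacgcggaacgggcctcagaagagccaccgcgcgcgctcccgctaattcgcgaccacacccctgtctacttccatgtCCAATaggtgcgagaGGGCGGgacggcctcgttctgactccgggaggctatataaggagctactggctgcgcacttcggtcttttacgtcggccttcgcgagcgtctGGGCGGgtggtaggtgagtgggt
MIR17HG (chr13:91347437-91347736, plus strand): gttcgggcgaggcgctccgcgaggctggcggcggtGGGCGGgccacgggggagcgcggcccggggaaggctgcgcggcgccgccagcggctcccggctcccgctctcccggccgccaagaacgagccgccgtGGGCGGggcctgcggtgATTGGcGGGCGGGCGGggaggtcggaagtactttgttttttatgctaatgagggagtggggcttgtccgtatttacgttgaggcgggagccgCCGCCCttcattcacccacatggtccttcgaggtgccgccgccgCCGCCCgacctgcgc
ZNF433-AS1 (chr19:11987367-11987666, plus strand): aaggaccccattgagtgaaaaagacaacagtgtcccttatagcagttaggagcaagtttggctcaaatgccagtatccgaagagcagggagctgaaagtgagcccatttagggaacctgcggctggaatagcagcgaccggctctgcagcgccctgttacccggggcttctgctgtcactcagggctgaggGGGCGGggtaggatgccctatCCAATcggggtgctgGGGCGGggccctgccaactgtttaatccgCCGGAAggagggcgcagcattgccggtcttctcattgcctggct
LINC02447 (chr4:7103327-7103626, minus strand): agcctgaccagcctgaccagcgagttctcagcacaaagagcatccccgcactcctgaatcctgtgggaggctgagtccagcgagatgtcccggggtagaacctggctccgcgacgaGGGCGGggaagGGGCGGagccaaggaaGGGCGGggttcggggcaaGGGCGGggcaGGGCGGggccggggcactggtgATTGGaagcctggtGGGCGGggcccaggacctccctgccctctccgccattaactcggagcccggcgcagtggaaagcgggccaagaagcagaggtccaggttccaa

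The start region of DANCR held 5 CCAAT matches and 3 GGGCGG matches, and its CpG ratio, observed over expected from base composition, was 0.798. MIR17HG and LINC02447 each held 6 GGGCGG matches, with CpG ratios of 1.07 and 0.591. LINC01569 held 3 GGGCGG matches and no CCAAT. SNHG5 had the highest CpG ratio of the 7, 1.20, and ZNF433-AS1 the lowest, 0.512.

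Fold enrichment is the authors' ratio of the summit's fragment pileup to the local background. The pileup, the whole number of fragments over the summit, was recovered from the deposited fold enrichment and −log10 p-value. The inflachromene library was inferred to hold 0.964 times as many fragments as the DMSO library. The median pileup over all control peaks was 23 fragments. As a check of the label, KRT8, KRT18, SOX9, VIM and CAV1, genes known to be expressed in pancreatic carcinoma lines, were marked at an end by both libraries, KRT19 and ZEB1 by DMSO only, and CDH2 by neither. Of 8 acinar and islet markers 0 had an end peak in either list. CD14, 1 of 6 immune markers, had one in inflachromene, and PDGFRB, 1 of 6 fibroblast and endothelial markers, had one in DMSO. Of 6 neuronal and liver genes APOA1 had one in both lists and SNAP25, SYT1 and GRIN1 in DMSO. In DMSO 7 of the 8 carcinoma-line genes and 4 of these 6 had an end peak, against 45.8% of all 19974 coding genes. The neuronal and liver share also lay above that background, so these counts cannot decide the identity of the cells.

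The lncRNA-end peaks clustered just before annotated starts. The nearest lncRNA end lay a median of 186 bp from the summit, and 527 of the 924 summits (57.0%) were within 250 bp. Strand, taken from the promoter table, was known for 670 of the 874 lncRNA genes named by a nearest end. By strand, 613 peaks lay within 1 kb of at least 1 lncRNA start, 101 only at 3′ ends, and 210 at ends of genes whose strand was not in the table. The median distance was 128 bp at starts and 485 bp at 3′ ends only. Of 609 peaks placed against the start of their nearest lncRNA, 253 (41.5%) had the summit in the 150 bp upstream of it, and the histogram of summit positions shows this narrow rise.

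**Figure D1:**
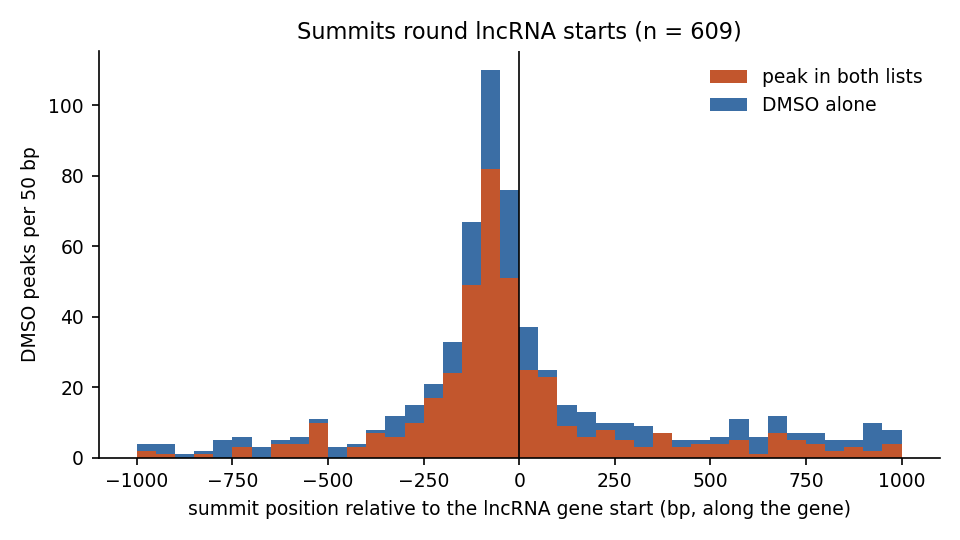
Position of the DMSO summit relative to the start of the nearest lncRNA gene, in bp along the gene (horizontal), against the number of DMSO peaks per 50 bp (vertical), stacked for shared and DMSO-only peaks, for 609 peaks. The bars are tallest within 150 bp upstream of the start, where 253 summits lay.

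Starts carried a peak far more often than 3′ ends. Among lncRNA genes over 2 kb long, ends more than 1 kb from any coding end were counted. Of 8182 such starts, 370 (4.52%, exact binomial 95% interval 4.08 to 4.99) had a peak of this kind in inflachromene and 513 (6.27%, 5.75 to 6.82) in DMSO. Of 9522 such 3′ ends, 62 (0.651%, 0.500 to 0.834) had one in inflachromene and 86 (0.903%, 0.723 to 1.11) in DMSO. Intervals here and below cover counting error only.

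The label "away from coding genes" holds for annotated gene ends but not for every coding transcript. Of the 924 summits 357 (38.6%) lay inside a protein-coding gene, and 165 (17.9%) were within 1 kb of another annotated start of a coding gene, which lay inside the outermost ends of its gene. The strongest lncRNA-end peak, at SERF2-C15ORF63, lay 166 bp from a start of SERF2, and that at LOC100128966 lay 46 bp from a start of CDC25C, the phosphatase gene of mitotic entry. Such peaks cannot be credited to the lncRNA. Outside coding genes lay 567 summits. Over all 924 the median distance to the nearest coding end was 12806 bp. A further 1685 control peaks lay at a lncRNA end but also within 1 kb of a coding end and were not members.

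The position rule thereby took different shares of different kinds of lncRNA gene. Of 591 divergent genes (symbols in -DT, for transcripts running away from a coding promoter), 382 had a DMSO peak at an end only within 1 kb of a coding end, and 22 had a member. Of 33 small nucleolar RNA host genes 15 had a member and 12 a peak only near a coding end. The counts were 15 and 7 of 88 microRNA hosts, 175 and 380 of 2044 antisense genes, and 159 and 23 of 2301 genes named LINC plus a number. Of 12316 genes named LOC plus a number, 464 (3.77%) had a member and 718 a peak only near a coding end. In all 923 of 18175 lncRNA genes (5.08%) had a member, 869 peaks lay at 1 lncRNA gene, 54 at 2 and 1 at 3.

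The rule's edges did not coincide with a step in strength. The 36 members in the last 100 bp inside the 1 kb limit round lncRNA ends had a median DMSO fold enrichment of 6.54, and the 33 peaks in the 100 bp beyond it had 6.86. The 26 members within 100 bp of the limit round coding ends had 7.04, and the 21 peaks that missed it by up to 100 bp had 7.11.

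The control peaks at lncRNA ends were of middling strength. Their median fold enrichment was 7.43 (quartiles 5.96 and 9.76), against 9.0 at protein-coding ends and 6.94 at the remaining peaks. Their median pileup was 23 fragments, against 27 at protein-coding ends and 20 at the remaining peaks, and their median width 294.5 bp, against 351 bp at protein-coding ends and 246 bp at the remaining peaks. The highest fold enrichment was 21 at lncRNA ends, 30.6 at protein-coding ends and 37.5 at the remaining peaks. Peaks at starts had a median of 7.70, those only at 3′ ends 6.56 and those of unlisted strand 6.97.

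The main comparison asked which of these positions were also called after inflachromene. Of the 924 peaks 574 (62.1%, 58.9 to 65.3) overlapped an inflachromene peak by at least 1 bp and 350 (37.9%, 34.7 to 41.1) did not, against 35.5% without one over all 15186 control peaks. The share without one was therefore near the background. It lay between that of peaks at protein-coding ends, 23.8% (22.9 to 24.7), and that of the remaining peaks, 51.1% (49.8 to 52.3). In the inflachromene list 633 peaks met the same position rule, and 571 of them overlapped a DMSO peak. The 62 others made up 9.79%, against 9.62% of all 10836 inflachromene peaks.

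Overlap followed peak strength, as the plot of overlap by strength shows. The control list was divided into 5 equal groups by fold enrichment. In the weakest group 75 of 226 lncRNA-end peaks (33.2%, 27.1 to 39.7) had an inflachromene peak, in the following groups 46.3%, 62.4% and 86.4%, and in the strongest all 128 did (100%, 97.2 to 100). At protein-coding ends the shares were 36.9%, 53.2%, 70.7%, 89.9% and 99.0%, and at the remaining peaks 29.3%, 37.7%, 52.9%, 73.5% and 95.3%. With the strength of the other 14262 control peaks, the lncRNA-end shares would come to 65.9%, against the 64.7% measured for those peaks. The 350 peaks in DMSO alone had a median fold enrichment of 6.22, a median pileup of 17 and a median width of 213 bp, against 8.92, 29 and 380 bp for the 574 in both.

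**Figure D2:**
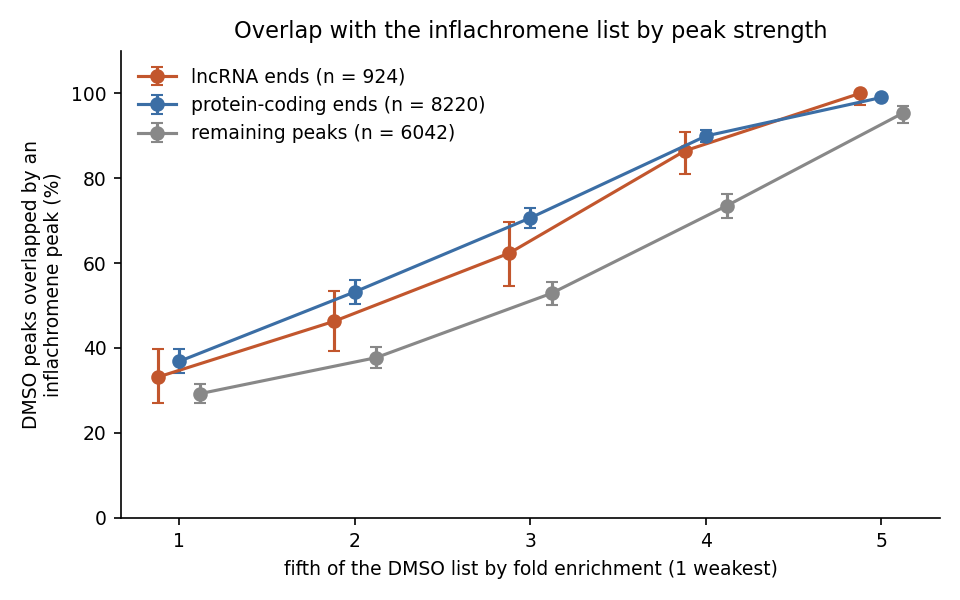
Share of DMSO peaks overlapped by an inflachromene peak (percent, vertical) in each of 5 equal groups of the DMSO list by fold enrichment (horizontal, 1 weakest), for lncRNA ends, protein-coding ends and remaining peaks; bars are exact binomial 95% intervals. At lncRNA ends the share runs from 33.2% in the weakest group to 100% in the strongest and lies between the other sets in the 4 weaker groups.

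The share with an inflachromene peak varied among the members. It was 66.2% (62.3 to 70.0) at starts, 57.4% (47.2 to 67.2) only at 3′ ends and 52.4% (45.4 to 59.3) where the strand was not listed. Brought to the strength of the other control peaks these became 67.3%, 68.0% and 61.2%, so the order of starts and 3′ ends did not hold at equal strength. Within starts it was 71.9% (66.0 to 77.4) for summits in the 150 bp upstream and 52.2% (42.6 to 61.7) for summits more than 250 bp downstream, with median fold enrichments of 8.18 and 7.38. It was 71.0% (61.1 to 79.6) for summits at the start or up to 250 bp downstream. For summits more than 150 and up to 250 bp upstream it was 75.9% (62.4 to 86.5), and farther upstream 57.3% (46.4 to 67.7). The share was thus lower far from the start on both sides. Near another coding start 127 of 165 peaks (77.0%, 69.8 to 83.2) had an inflachromene peak, and elsewhere 447 of 759 (58.9%, 55.3 to 62.4). At equal strength these were 76.9% and 63.7%, so this difference remained in both forms.

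By symbol, all 15 peaks at small nucleolar RNA hosts had an inflachromene peak (100%, 78.2 to 100), against 64.5% of all control peaks. The median DMSO fold enrichment at these hosts was 10.9. The share was 68.2% of 148 LINC peaks, 68.0% of 25 divergent, 61.5% of 182 antisense, 61.1% of 18 microRNA host and 58.5% of 460 LOC peaks. The interval of the small nucleolar RNA hosts lay above those of LINC (60.1 to 75.6), antisense (54.1 to 68.6) and LOC peaks (53.8 to 63.0). It overlapped those of the divergent and microRNA host peaks. LINC, antisense and LOC peaks were weaker than these hosts, with median fold enrichments of 8.22, 7.03 and 7.43. A share at equal strength could not be formed for the hosts, which lacked peaks in part of the strength groups. For the other classes named, the share at equal strength was 69.0% for LINC, 68.6% for antisense, 67.5% for divergent, 62.5% for LOC and 60.1% for microRNA host peaks. Whether the classes differ apart from strength was not tested. At the level of genes, a lncRNA gene was counted as bound in a library where a peak of that library met the position rule at its end, or overlapped a peak of the other library that did. The second condition brought the genes bound in DMSO to 933, against 923 with a member. By this rule 608 lncRNA genes were bound in each of the libraries, 56 in inflachromene alone and 325 in DMSO alone. The 325 made up 34.8% (31.8 to 38) of 933 genes bound in DMSO, against 20.2% (19.4 to 21) of 9154 protein-coding genes bound in DMSO. These gene shares were not brought to equal strength, and peaks at protein-coding ends were stronger. Among peaks at equal strength, 65.9% at lncRNA ends and 70.1% at protein-coding ends had an inflachromene peak.

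Where both lists had a peak, the summit usually held fewer fragments in the inflachromene library. The pileup was lower at 433 of 574 peaks, equal at 24 and higher at 117, a share of 75.4% lower against 74.7% over all 9796 shared control peaks. Inflachromene over DMSO pileup had a median of 0.833 (quartiles 0.706 and 0.981), which was also that over the other shared peaks. At least 1.5-fold lower were 109 peaks (19%), against 18.3% of all shared peaks, and at least 1.5-fold higher were 7 (1.22%), against 1.46%. The exact Poisson 95% intervals of the 2 pileups lay apart at 8 peaks (1.39%), all of them lower in inflachromene, against 1.46% of all shared peaks apart in that direction and 0.0102% apart in the other. None of these shares differed from the background by more than 1 percentage point. The plot of summit pileup shows a cloud mostly below the line of equality. In it 109 points lie at or beyond the line for 1.5-fold lower and 7 at or beyond that for 1.5-fold higher.

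**Figure D3:**
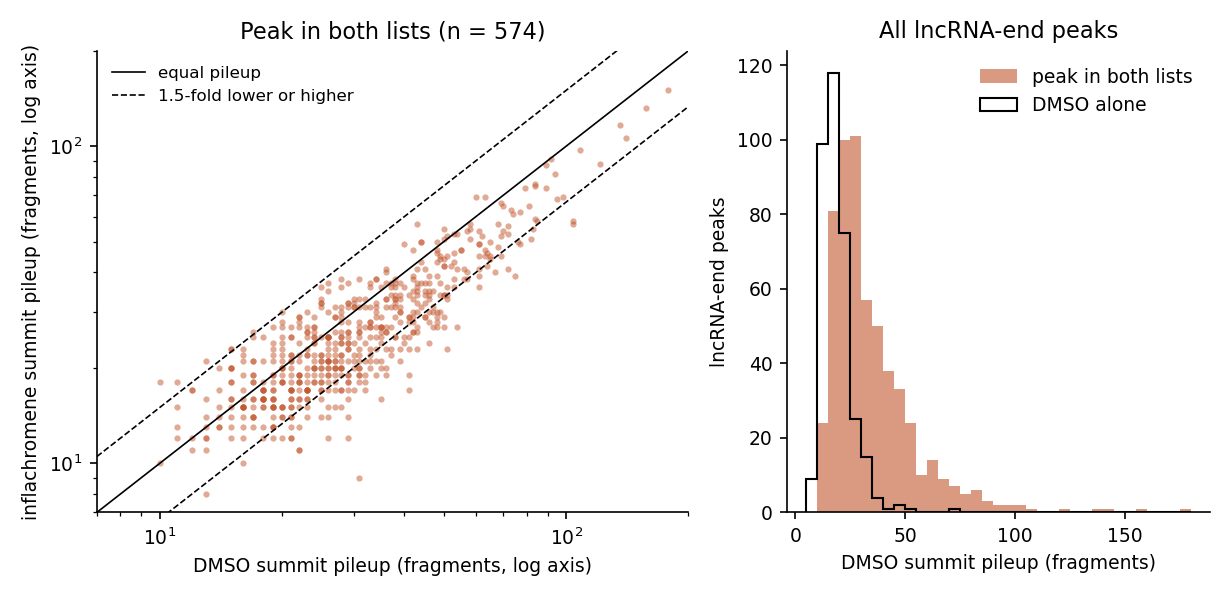
Left, summit pileup in inflachromene (vertical) against DMSO (horizontal), in fragments on log axes, for the 574 lncRNA-end peaks in both lists, with lines of equal pileup and of 1.5-fold differences. Right, DMSO summit pileup in fragments (horizontal) against the number of peaks (vertical), for peaks shared by the lists and those in DMSO alone, with medians of 29 and 17 fragments.

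The 6 strongest members with an inflachromene peak all lay at lncRNA starts, and were picked by their DMSO fold enrichment. In the 5 strength groups the median pileup ratio at shared lncRNA-end peaks fell from 1 in the weakest to 0.755 in the strongest. It also fell from 1 to 0.769 at protein-coding ends and from 1 to 0.741 at the remaining peaks. Low ratios at members picked for a high DMSO value or a low ratio are therefore not read as particular to those loci. At SERF2-C15ORF63, a readthrough locus on chromosome 15 (43791936 to 43792391), the summit held 57 fragments in inflachromene (Poisson interval 43.2 to 73.8) and 104 in DMSO (85.0 to 126.0), with fold enrichments of 14.2 in inflachromene and 21 in DMSO. The intervals did not overlap. At LOC100128966 on chromosome 5 (138331727 to 138332156) it held 74 fragments in inflachromene and 79 in DMSO, and at LOC112267988 on chromosome 7 (143836627 to 143837176) 69 in inflachromene and 98 in DMSO. The LOC112267988 summit also lay within 1 kb of an end of a transcribed pseudogene. LINC01569 on chromosome 16 (4253737 to 4254228), whose summit lay 224 bp upstream of the start in the sequence above, held 76 fragments at 17.4-fold in inflachromene and 84 at 18.7-fold in DMSO. These 3 pairs of intervals overlapped.

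DANCR on chromosome 4 (52712150 to 52712545) encodes an lncRNA known for holding progenitor cells undifferentiated, and also hosts a small nucleolar RNA. Its summit, 73 bp upstream of the start in the region printed above, held 23 fragments in inflachromene (14.6 to 34.5) and 51 in DMSO (38 to 67.1). The intervals did not overlap, and the ratio of 0.451 was the lowest of 234 shared members whose pileups averaged at least 30. The fold enrichment was 11.2 in inflachromene and 19.3 in DMSO. LINC02226 on chromosome 5 (8457328 to 8457743), at an end of MIR4458HG too, held 27 fragments in inflachromene (17.8 to 39.3) and 54 in DMSO (40.6 to 70.5), again with intervals apart. By ratio, LOC124905134 on chromosome 22 stood between DANCR and LINC02226, with 19 fragments in inflachromene and 41 in DMSO, a ratio of 0.463. LOC105371901 on chromosome 17 came after LINC02226, with 39 fragments in inflachromene and 75 in DMSO, a ratio of 0.52. The summit at LOC105371901 lay 202 bp from a start of SEC14L1.

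The highest ratios in the same pool left the counting intervals overlapping. LOC124901081, 105 bp from a start of MATR3, held 36 fragments in inflachromene and 25 in DMSO, and GPRC5D-AS1 on chromosome 12 (12927468 to 12927694) held 37 in inflachromene and 26 in DMSO. LINC03108 on chromosome 1 held 38 in inflachromene and 28 in DMSO, at a 3′ end. CRNDE, an lncRNA gene known to be raised in colorectal and other tumours (chromosome 16, 54929061 to 54929431), held 35 fragments in inflachromene (24.4 to 48.7) and 26 in DMSO (17 to 38.1), at 10.1-fold in inflachromene and 7.80-fold in DMSO.

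The strongest members without an overlapping inflachromene peak reached 11.3-fold, and lay in the second strongest of the 5 groups. LOC107985090 on chromosome 17 (40533413 to 40533589) led with 37 fragments at 11.3-fold in DMSO. LOC107985579, LOC124901033 and LOC124905184 followed with 21, 28 and 28 fragments in DMSO. At LOC124901033 on chromosome 5 (96808240 to 96808506), 415 bp from a start of ERAP1, an inflachromene peak of 16 fragments at 6.19-fold lay directly beside the DMSO peak (96808048 to 96808220) without overlapping it. ZNF433-AS1, antisense to a zinc finger gene on chromosome 19 (11987471 to 11987753), held 24 fragments at 10.3-fold with the summit 48 bp upstream of its start. LINC02447 on chromosome 4 (7103361 to 7103589) held 26 at 10.3-fold, 63 bp upstream. How many inflachromene fragments lay at these 6 positions is not given by a peak list.

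Among peaks of the inflachromene list that met the position rule and overlapped no DMSO peak, the median fold enrichment was 5.55 and the highest 9.20. That highest peak lay at LOC124902631 on chromosome 11 (11246947 to 11247175), with 29 fragments. PCNA-AS1, antisense to the gene of the replication clamp PCNA, followed with 24 fragments at 8.30-fold (chromosome 20, 5119335 to 5119713). A second peak at PCNA-AS1 was present in both lists, with 24 fragments in inflachromene and 32 in DMSO. The DMSO summit of this second peak lay 91 bp from a start of PCNA, so it cannot be credited to the lncRNA. LINC01013 and LOC100422781 had 14 fragments each.

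The host genes of microRNAs were of interest because their transcription start serves the microRNA as well. Of the 15 host genes with a member, 11 were found after both treatments and 4 in DMSO alone, against 34.8% in DMSO alone over all lncRNA genes bound in DMSO. Mature microRNAs of 4 hosts are shown, in the arm known to be the more abundant, to place the peaks beside their products. The sequences are from RefSeq (GRCh38.p14), 5′ to 3′, with the seed, bases 2 to 8, in capitals.
hsa-miR-17-5p: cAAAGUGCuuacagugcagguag
hsa-miR-20a-5p: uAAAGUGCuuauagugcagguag
hsa-miR-18a-5p: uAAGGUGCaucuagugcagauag
hsa-miR-19a-3p: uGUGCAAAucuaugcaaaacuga
hsa-miR-19b-3p: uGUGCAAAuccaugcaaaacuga
hsa-miR-92a-3p: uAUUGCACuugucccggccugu
hsa-miR-221-3p: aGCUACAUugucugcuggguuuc
hsa-miR-222-3p: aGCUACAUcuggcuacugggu
hsa-miR-210-3p: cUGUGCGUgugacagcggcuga
hsa-miR-31-5p: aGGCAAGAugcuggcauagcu

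The first 6 microRNAs derive from MIR17HG, in which miR-17-5p and miR-20a-5p share the seed AAAGUGC and miR-19a-3p and miR-19b-3p the seed GUGCAAA. MIR222HG holds miR-221-3p and miR-222-3p, which share GCUACAU. MIR17HG, the host of the oncogenic miR-17-92 cluster on chromosome 13 (91347416 to 91347858), had 18 fragments at 7.24-fold in DMSO and no overlapping inflachromene peak. MIR222HG on chromosome X (45770121 to 45770410) held 21 fragments in inflachromene (13.0 to 32.1) and 29 in DMSO (19.4 to 41.6), 28 bp upstream of its start.

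MIR210HG, the host of the hypoxia-induced miR-210 on chromosome 11 (568406 to 568819), held 41 fragments in inflachromene (29.4 to 55.6) and 61 in DMSO (46.7 to 78.4). MIR31HG on chromosome 9 (21559139 to 21560137) held 63 in inflachromene (48.4 to 80.6) and 73 in DMSO (57.2 to 91.8) over a peak that was 999 bp wide in DMSO. Its fold enrichment was only 5.23 in inflachromene and 6.05 in DMSO, with a local DMSO background of 11.2 fragments. The intervals of the 2 libraries overlapped at MIR222HG, MIR210HG and MIR31HG.

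The hosts of the let-7 family, microRNAs known to restrain growth-promoting genes, were also present. MIRLET7A1HG held 38 fragments in each library at its stronger peak, at 10.7-fold in inflachromene and 11.6-fold in DMSO. MIRLET7IHG held 26 in inflachromene and 23 in DMSO. Of the 2 hosts of miR-181a, MIR181A2HG held 19 fragments in inflachromene and 31 in DMSO at its strongest peak, and MIR181A1HG 21 in inflachromene and 31 in DMSO. MIR23AHG on chromosome 19 had 3 peaks, of which the strongest held 97 fragments in inflachromene and 108 in DMSO, at 3.49-fold in each library. That peak lay at the 3′ end, and its local DMSO background of 30.2 fragments was among the highest of all members. The peak 31 bp upstream of the MIR23AHG start held 54 fragments in DMSO and a further one at the 3′ end 72, neither with an inflachromene peak.

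Small nucleolar RNA hosts, whose introns release guides for ribosomal RNA modification, held fewer fragments in inflachromene at 11 of 15 peaks and more at 4. SNHG29 held 69 fragments in inflachromene and 63 in DMSO, and SNHG5, whose start region is printed above, 50 in inflachromene and 44 in DMSO. SNHG15 held 32 in inflachromene and 43 in DMSO, and SNHG32 34 in inflachromene and 50 in DMSO. The 2 intervals overlapped at each of these 4. The median ratio over the 15 was 0.818, against 0.833 over all shared lncRNA-end peaks.

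Of the 46 lncRNA genes listed for cancer and proliferation, 12 had a member, against 5.08% of all lncRNA genes, and 9 of the 12 an inflachromene peak, against 62.1% of all members. The genes were listed with earlier results known, and nothing is read from these counts. A further 4 had a DMSO peak only within 1 kb of a coding end, 29 had none at an end, and TUG1 was not listed as an lncRNA. NORAD, known for sequestering Pumilio proteins, held 20 fragments in inflachromene and 26 in DMSO (chromosome 20, 36050699 to 36051146). DLEU1, first known from a region deleted in leukaemia, held 23 in inflachromene and 31 in DMSO, and LINC00467 13 in inflachromene and 19 in DMSO at a peak shared with 2 other lncRNA genes. Higher in inflachromene were LUCAT1, a stress-responsive lncRNA gene, with 25 fragments in inflachromene and 17 in DMSO, and LINC00941 with 25 in inflachromene and 18 in DMSO, both with overlapping intervals. MEG3, an imprinted lncRNA gene known as a growth suppressor, had 19 fragments at 5.30-fold in DMSO alone, and LINC00673, studied in pancreatic cancer, had 24 at 5.69-fold in DMSO alone. The median ratio over the 9 was 0.769, against 0.833 over all shared peaks.

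Of 18 genes listed for chromatin, imprinting and dosage control 5 had a member, again against 5.08% of all lncRNA genes. CHASERR, which is known to hold down its neighbour CHD2 in cis, held 69 fragments in inflachromene (53.7 to 87.3) and 60 in DMSO (45.8 to 77.2) on chromosome 15 (92882312 to 92882869). KCNQ1OT1, the imprinted antisense transcript of the KCNQ1 locus, held 28 in each. JPX and FTX belong to the X inactivation centre. JPX held 15 fragments in inflachromene and 19 in DMSO, and FTX, at a peak shared with LOC124905199, had 19 in DMSO alone. DANCR was on this list too. The median ratio over the 4 with an inflachromene peak was 0.895. Of 12 immune and stress genes 3 had a member, against the same 5.08%. NKILA, an inhibitor of NF-kB signalling, held 30 fragments in inflachromene and 48 in DMSO, HCP5 held 11 in inflachromene and 12 in DMSO, and HIF1A-AS3 had 14 in DMSO alone. The plot of named members sets these pileups side by side.

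**Figure D4:**
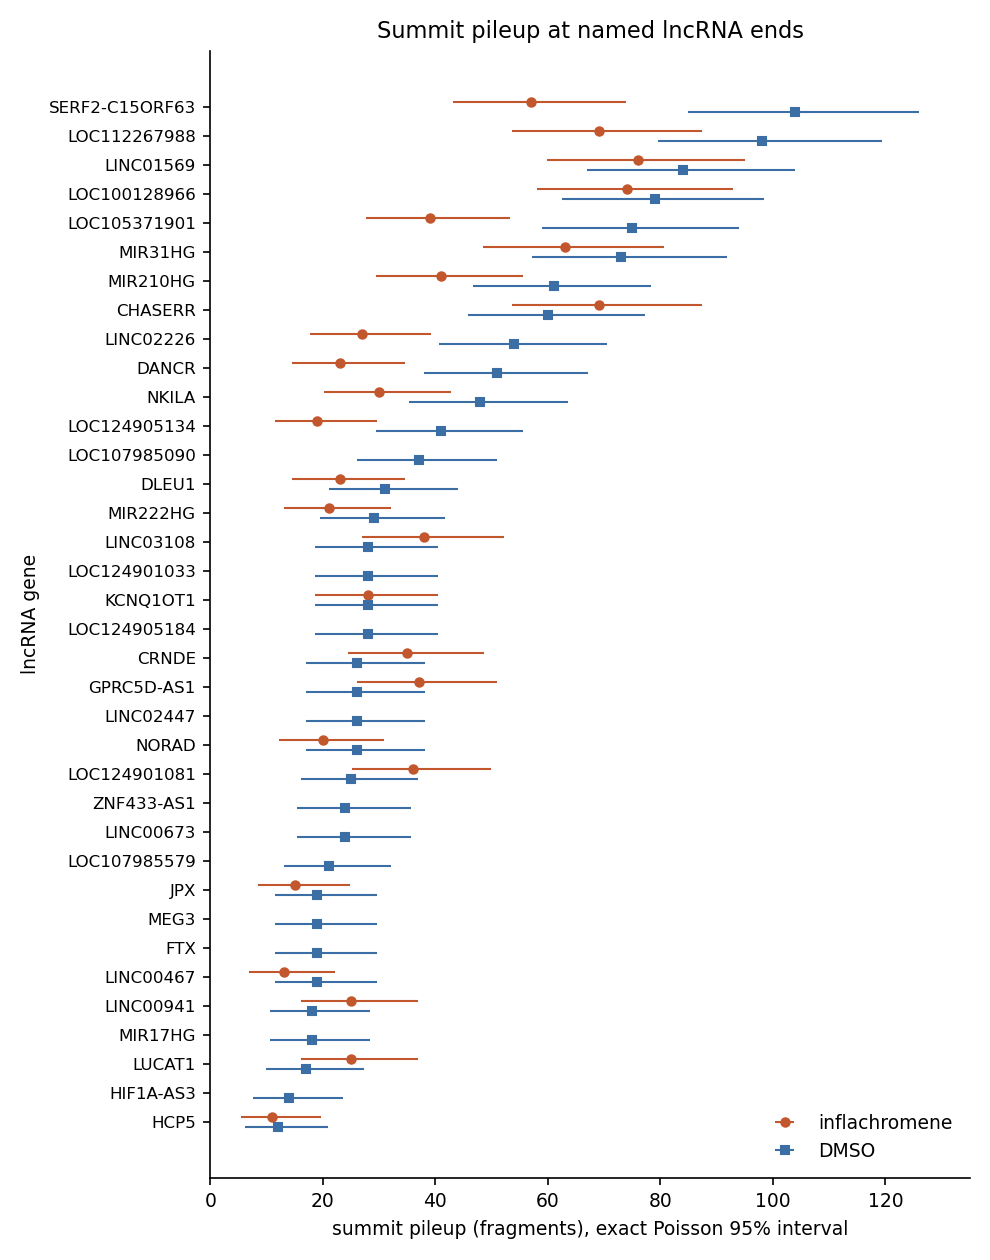
Summit pileup in fragments (horizontal) at 36 named lncRNA genes (vertical), as circles for inflachromene above squares for DMSO, with exact Poisson 95% intervals; the 11 genes without a circle had no inflachromene peak overlapping their DMSO peak. The intervals of SERF2-C15ORF63, LOC105371901, LINC02226 and DANCR lie apart, with the inflachromene value lower.

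Antisense and divergent lncRNAs are named after a coding gene, and its ends were looked up as well. For 188 such coding genes in the table, 58 had an end peak in inflachromene and 75 (39.9%) in DMSO, against 45.8% of all 19974 coding genes in DMSO. The lncRNA summit lay a median of 10072.5 bp from the nearest end of that coding gene. Of 76 of these lncRNA peaks in DMSO alone, 25 belonged to a coding gene with end peaks in both lists. Over all 188 such coding genes 54 had end peaks in both lists, and over all 19974 coding genes 7304, so the count was near the background.

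Promoter sequence was set beside the peaks for 358 members whose summit lay in an annotated lncRNA start region of 300 bases. Their median GC share was 65.8% and their median CpG ratio 0.813. Over 7249 coding start regions that held a DMSO summit these were 66.7% and 0.879, and over 10679 lncRNA start regions with no DMSO summit within 1 kb 47.3% and 0.238. Within the members, the CpG ratio was 0.827 for the 256 with an inflachromene peak and 0.740 for the 102 in DMSO alone. The bound lncRNA starts were thus close to bound coding starts in base composition and far from unbound lncRNA starts. Members near another coding start were not left out of the 358, so this likeness cannot be credited to lncRNA starts alone.

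Start regions were searched on both strands for 9 motifs. Those of core promoters were the TATA box (TATAAA), the CCAAT box (CCAAT) and the GC box (GGGCGG). Those of transcription factor families were the ETS core (CCGGAA), the E-box (CACGTG), the AP-1 site (TGANTCA) and the TEAD core (GGAATG). The cyclic AMP response element was searched as TGACGTCA, and the palindromic NRF1 motif was the last. Matches to the ETS and TEAD cores can overlap. GGGCGG was found in 70.1% of the 358 member regions, against 45.0% of all 35116 regions in the table, and CCGGAA in 28.5% against 17.2%. TGACGTCA was found in 5.59% against 1.85%, CACGTG in 12.3% against 7.26% and the NRF1 motif in 10.1% against 5.78%. TATAAA was found in 4.19% against 11.5%, and GGAATG in 12.3% against 14.0%. Coding regions with a DMSO summit held GGGCGG in 79.2%, CCGGAA in 36.2% and the NRF1 motif in 14.8%, each above the member share. They held TGACGTCA in 4.22%, CACGTG in 11.2%, TATAAA in 3.48% and GGAATG in 8.99%, each below it.

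TGANTCA, the core of AP-1 sites, was found in 39 member regions (10.9%), against 3.42% of coding regions with a DMSO summit, 11.3% of unbound lncRNA regions and 7.71% of all regions. CCAAT was found in 43.4% of member regions with an inflachromene peak and 25.5% of those in DMSO alone, against 34.6% of all regions. The plot of motif matches shows these shares. Base composition differs between the sets. Over all members, those in DMSO alone were also weaker, with a median fold enrichment of 6.22 against 8.92. The part of base composition or strength in these shares was not tested. A match is a run of letters, not a bound site.

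**Figure D5:**
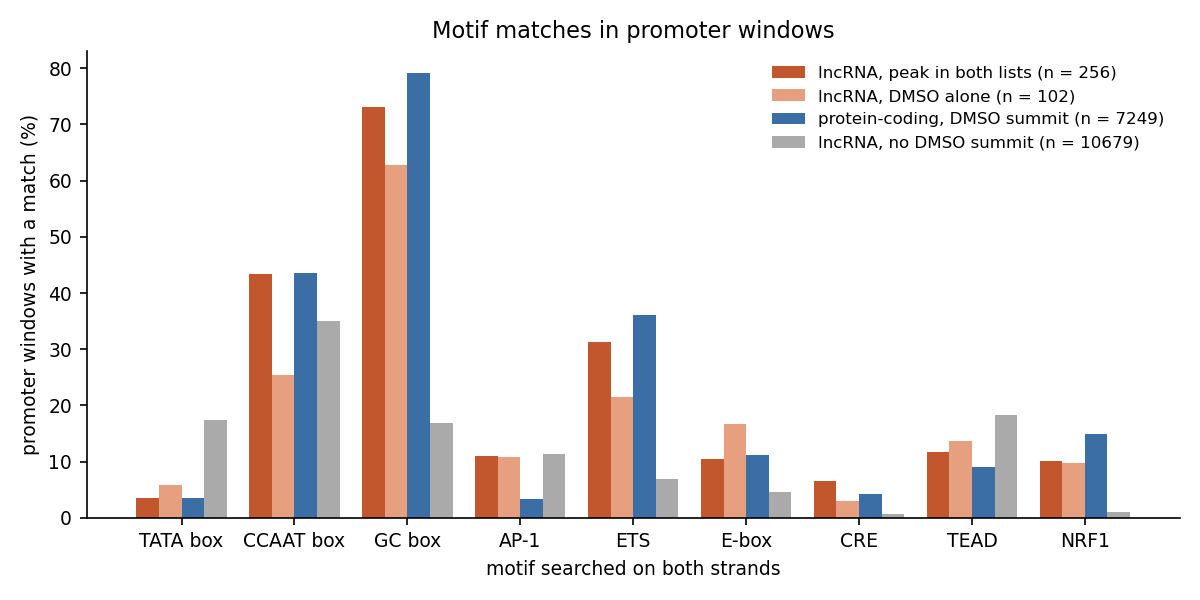
Share of 300-base start regions with at least 1 match (percent, vertical) for 9 motifs (horizontal), in lncRNA regions with a member in both lists, lncRNA regions with a member in DMSO alone, coding regions with a DMSO summit and lncRNA regions without one. AP-1 matches were about as frequent in bound as in unbound lncRNA regions, 10.9% and 11.3%. In the first 2 sets CCAAT matches stood at 43.4% and 25.5%, and E-box matches, in the other order, at 10.5% and 16.7%.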

How the data were processed

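The deposited files were 1 peak list in narrowPeak layout per treatment. Per the submitters' processing notes, the tools were deepTools 3.5.6 and MACS2 and the build was hg38. How reads were aligned, how duplicates and multiply mapped reads were treated and whether a control library was used was not stated there. Each row of the deposited lists holds the position, an integer score (not used further), the summit and its fold enrichment, which is a ratio of pileup over background. The deposited −log10 values are a p-value and a q-value per peak, and no q fell below 3.01 in inflachromene or 3.02 in DMSO on that scale.

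From these the whole pileup p and background b were solved from fold = (p + 1)/(b + 1) and the Poisson p-value, to within 0.001 of the deposited −log10 p at every peak on the assembled chromosomes. On DMSO summits simulated with the same formulas the step returned the true pileup at 2000 of 2000. That checks the solving only, not whether the deposited values follow these formulas. The ratio of fragment numbers came from each list's lowest background and from fragment lengths of 165.7 bp in inflachromene and 152.4 bp in DMSO, read from background steps; all are inferences from the values. Summits were placed against 18175 lncRNA and 19974 protein-coding genes of the RefSeq table for GRCh38.p14, which shares coordinates with hg38 on these chromosomes; strand and further starts came from the RefSeq promoter table. Where several inflachromene peaks overlapped a member, the one with the highest pileup was used. Named genes were the 6 strongest members with and without an inflachromene peak, the 4 lowest and 4 highest pileup ratios at a mean pileup of 30 or more, the 4 strongest inflachromene-only peaks and every member of the 3 gene lists. The members, lists and motifs were chosen with earlier results of these data known. Python 3.11.15 with scipy 1.17.1 was used. Alternatives concerned the overlap, the threshold, the windows and the measure of strength.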

Additional observations from a re-analysis of the deposited data

How the results depend on the processing

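Of 924 members 62.1% had an inflachromene peak. The share was 55.8% with 50% reciprocal overlap, 77.7% with both lists held to the shorter length, 66.0% with a 500 bp window round lncRNA ends, 65.7% without LOC symbols and 58.9% without members near another coding start, an alternative added after the data were examined. The corresponding shares of all other control peaks were 59.0%, 79.5%, 64.4%, 64.5% and 64.8%. The remaining alternatives for this share gave values from 60.1% to 62.4%. Brought to the strength of other peaks by fold enrichment the members' share was 65.9%, and with 10 groups by pileup 62.2%, so it fell on either side of the 64.7% of other peaks. The median pileup ratio stayed below 1 under all its alternatives, from 0.810 to 0.882. The gene counts stayed within 1.5 times of their values. No paired analysis was possible because each treatment had 1 sample, and for the same reason no sample could be left out. The lists give no fragment number where no peak was called, so a peak in DMSO alone may hold inflachromene fragments below the calling threshold.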

Other observations

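Some lncRNA genes and loci chosen after their values were seen stood at the edges of the set. Of the pileup ratios, the lowest was at LOC105377134 on chromosome 21 (14027202 to 14027479), with 9 fragments in inflachromene and 31 in DMSO. The highest was at HCG4B in the major histocompatibility complex region of chromosome 6 (29926969 to 29927187), with 18 in inflachromene and 10 in DMSO. The highest pileup was at LOC102723696 on chromosome 3, with 150 fragments in inflachromene and 178 in DMSO. Its summit also lay within 1 kb of an end of a transcribed pseudogene. The widest peak, at LOC124903859 on chromosome 1, measured 1687 bp in inflachromene and 2261 bp in DMSO. Its summit also lay within 1 kb of an end of a small nuclear RNA gene. At 6 genes 3 members each were found. MANCR, an lncRNA gene on chromosome 10, had 2 peaks near its start and 1 near its 3′ end, and of these only the strongest was in both lists, with 25 fragments in inflachromene and 38 in DMSO.

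Members also lay at ends of other non-coding genes and of pseudogenes. At transfer RNA genes there were 32, of which 20 had an inflachromene peak, at microRNA genes 13 with 11, at small nuclear RNA genes 9 with 8 and at small nucleolar RNA genes 8 with 7. Over all members 62.1% had one, so the unadjusted share at transfer RNA genes, 62.5%, was that of the whole set, and the other counts are small. At the strength of the other control peaks the share at transfer RNA genes became 78.9%, from only 32 peaks, against 65.9% over all members. Members at small nuclear RNA genes had a median width of 933 bp in DMSO, against 294.5 bp over all members. At transcribed pseudogenes there were 29 members, of which 22 had an inflachromene peak, and at other pseudogenes 17 with 12. The members at transcribed pseudogenes had a median DMSO fold enrichment of 10.1, against 7.43 over all members. At the strength of the other control peaks their share with an inflachromene peak became 57.4%.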
